A study of Mus musculus with 8 samples.

Results

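Astrocytes are glial cells that take up glutamate, buffer potassium and water at blood vessels, and pass ions and metabolites to one another through gap junctions. After injury or toxin exposure they can become reactive, a state in which the filament proteins GFAP and vimentin and secreted proteins such as the protease inhibitor encoded by Serpina3n are commonly raised. The genes described here are 10 that mark astrocytes or their reactive state: Gfap, Vim, Serpina3n, Aqp4, Gja1, Slc1a2, Slc1a3, Aldh1l1, S100b and Agt. They were taken by symbol from the annotation of the array, with the brightest probe set (the group of short probes read as 1 value) of each gene that carried that symbol alone, and they are 10 of the 19938 genes that had such a probe set. Each of the 10 had 1 such probe set.

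The arrays measured RNA from both thalami of single male C57BL/6 mice, given as 6 weeks old, with 2 mice in each of 4 groups and so 8 arrays. Acupoint mice received MPTP, a toxin of dopamine neurons, intraperitoneally at 20 mg/kg of free base in 100 µl of saline every 24 hr for 4 weeks, and were needled by hand at the leg and foot points GB34 and LR3 in 14 sessions 48 hr apart. Non-acupoint mice received the same MPTP and the same number of sessions, with the needles placed in the hips. MPTP mice received the injections without needling, and control mice received saline alone. MPTP given in this way acts on the whole animal, and no group was needled without MPTP.

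All values are log2 signals after RMA, the robust multi-array average, so a difference of 1 is a 2-fold difference in signal. The mean signal of each of the 10 genes lay above that of 77.8% to 98.7% of all probe sets and above the brightness filter. The tissue was not separated into cell types, so fewer astrocytes and less RNA per astrocyte cannot be told apart. Changes were fitted with limma over the 8 arrays, and p-values were adjusted by the Benjamini-Hochberg method over 15791 named probe sets. The threshold was an adjusted p of 0.05.

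A pair of the arrays, those of MPTP mouse 1 and of non-acupoint mouse 1, stood out from the rest. They correlated with one another at 0.982 over the probe sets tested, and with the other 6 at 0.905 to 0.936, while those 6 correlated among themselves at 0.981 to 0.995. The median absolute gap between the 2 mice of a group was 0.09 in acupoint and 0.08 in control mice, against 0.31 in non-acupoint and 0.39 in MPTP mice. Against the mean of the other 6 arrays, the pair of arrays was lower in Slc1a2 by 0.70, S100b by 0.69, Gfap by 0.67 and Vim by 0.45, and higher in Serpina3n by 0.63. Differences of the 10 genes that move most with these arrays, and list medians, are given with and without them (8 and 6 arrays), while other values are over 8 arrays. The part that this split plays in them was not tested.

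The upstream sequences of 3 of the genes are shown because reactive astrocyte genes are known targets of the transcription factor STAT3, and the windows differ in its motif. Each line holds the 250 bases before the transcription start in RefSeq (GRCm38.p6), 5′ to 3′ on the strand of the gene, with the STAT motif TTCNNNGAA in capitals. The motif reads the same on both strands, matches do not overlap here, and it was found in 7.02% of the 32851 promoter windows of that length. Gfap lies at chr11:102897201-102897450 on the minus strand, Agt at chr8:124569707-124569956 on the minus strand and Slc1a3 at chr15:8710808-8711057 on the minus strand.
Gfap: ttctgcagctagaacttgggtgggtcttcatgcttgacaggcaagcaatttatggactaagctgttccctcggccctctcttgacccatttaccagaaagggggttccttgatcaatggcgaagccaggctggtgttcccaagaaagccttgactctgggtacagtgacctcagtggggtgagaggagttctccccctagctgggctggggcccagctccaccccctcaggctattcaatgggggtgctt
Agt: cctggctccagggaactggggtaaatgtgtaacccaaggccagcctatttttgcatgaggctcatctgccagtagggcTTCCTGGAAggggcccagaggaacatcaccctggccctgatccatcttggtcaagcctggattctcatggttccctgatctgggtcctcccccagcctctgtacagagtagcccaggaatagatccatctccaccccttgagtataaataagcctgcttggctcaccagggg
Slc1a3: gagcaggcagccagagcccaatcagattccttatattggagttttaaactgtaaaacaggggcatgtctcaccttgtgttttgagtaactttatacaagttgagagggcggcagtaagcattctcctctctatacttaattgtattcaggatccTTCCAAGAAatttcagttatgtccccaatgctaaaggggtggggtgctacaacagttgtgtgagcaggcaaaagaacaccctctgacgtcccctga
The Agt window holds TTCCTGGAA with its first base 172 before the start, and the Slc1a3 window holds TTCCAAGAA with its first base 96 before the start. The other 7 windows searched, Gfap among them, hold no run of these letters, and Aqp4 was not searched. These matches describe only the 250 bases of each window, and bases further upstream were not searched. A window without the motif therefore does not show that the gene lacks it, and binding was not measured.

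Gfap, the main intermediate filament of astrocytes and the usual marker of reactive ones, was lower after MPTP in all 6 injected mice than in either control. Its gene lies on chromosome 11 at 102887336 to 102897200 (GRCm38.p6). The signal was 8.31 and 8.52 in acupoint mice, 7.80 and 8.84 in non-acupoint mice, 8.38 and 8.55 in MPTP mice, and 9.25 and 9.05 in control mice. The 6 injected mice and the 2 controls did not overlap, and the lowest value was that of non-acupoint mouse 1. The 3 injected groups together were lower than control by a log2 difference of -0.75 (SE 0.26), a 1.68-fold lower signal, which had an unadjusted p of 0.027 and did not pass adjustment (limma adjusted p = 0.627).

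Each injected group gave a similar Gfap value on its own. The difference from control was -0.74 in acupoint mice (limma adjusted p = 0.918), -0.83 in non-acupoint mice (adjusted p = 0.705) and -0.69 in MPTP mice (adjusted p = 0.714). These 3 values share the same 2 control mice. Without MPTP mouse 1 and non-acupoint mouse 1, the difference for the injected mice was -0.55 and passed the threshold (limma adjusted p = 0.0325), as 2.00% of all probe sets did in the lower direction and 5.41% in either. The acupoint difference, which uses neither of those arrays, kept its size of -0.74 and passed as well (adjusted p = 0.0158), where 3.31% of probe sets passed lower and 8.64% in either direction. The non-acupoint difference was -0.31 without non-acupoint mouse 1, so that array carried much of its size. With those arrays left out, the spread in the fit comes from the acupoint and control pairs alone, and the single MPTP and non-acupoint mice are assumed to vary like them. No Gfap difference between needled and MPTP mice passed. Over all arrays, acupoint minus MPTP was -0.05 with a 95% interval of -0.83 to 0.73. Non-acupoint minus MPTP was -0.15 with an interval of -0.92 to 0.63, and acupoint minus non-acupoint was 0.10. In the same order, these were -0.14, 0.29 and -0.42 without MPTP mouse 1 and non-acupoint mouse 1. The last 2 therefore changed sign with those arrays.

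Vim encodes vimentin, the filament that assembles with GFAP and that endothelial and meningeal cells also make, and its gene lies on chromosome 2 at 13574311 to 13582826. Its signal was 9.27 and 9.41 in acupoint mice, 8.43 and 9.03 in non-acupoint mice, 9.14 and 9.00 in MPTP mice, and 9.44 and 9.30 in control mice. Acupoint mice lay with the controls, while both non-acupoint mice and both MPTP mice lay below every control. Acupoint minus non-acupoint was 0.61 (SE 0.21), a 1.53-fold difference with an unadjusted p of 0.026 (limma adjusted p = 0.893). Non-acupoint minus control was -0.64, or 1.56-fold lower, with an unadjusted p of 0.021 (adjusted p = 0.705). Without the arrays that stood apart, these 2 differences were 0.31 and -0.34. Over the 4 groups Vim had the smallest F test p of the 10 genes, 0.067 before adjustment (limma adjusted p = 0.906).

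**Figure D1:**
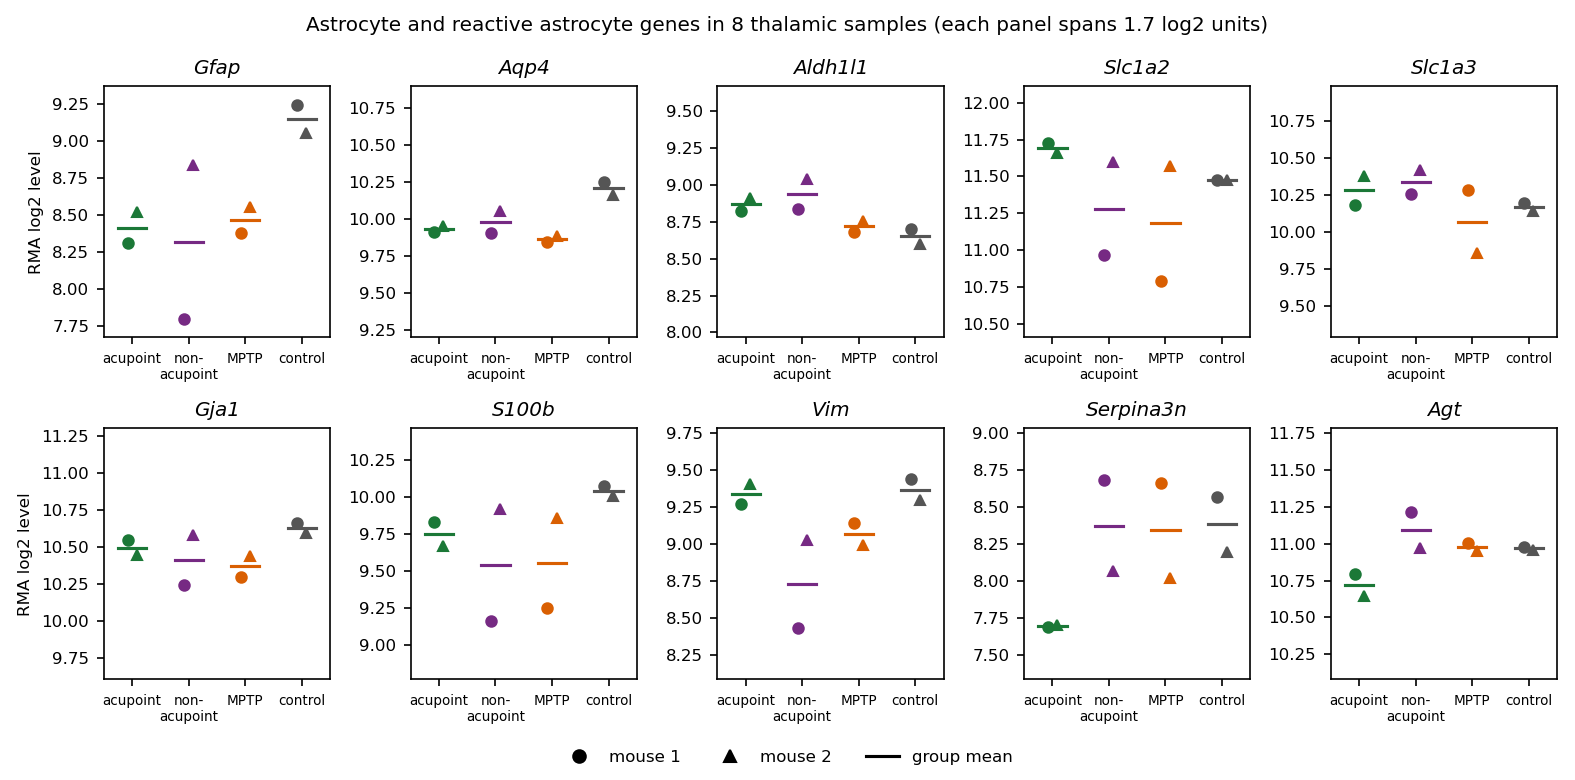
RMA log2 signal (y axis, same span in every panel) of each of the 10 astrocyte genes in the 8 mice, with acupoint, non-acupoint, MPTP and control mice from left to right (x axis). Circles are mouse 1, triangles are mouse 2 and bars are group means. Gfap, Aqp4, Gja1 and S100b sit below both controls in all 6 injected mice.

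Serpina3n, a serine protease inhibitor that is among the most strongly raised genes of reactive astrocytes in mouse injury models, was lowest in acupoint mice. Its gene lies on chromosome 12 at 104406646 to 104414334. Its signal was 7.69 and 7.70 in acupoint mice, 8.68 and 8.07 in non-acupoint mice, 8.67 and 8.02 in MPTP mice, and 8.57 and 8.20 in control mice. Both acupoint mice lay below all of the other 6, and the other 3 groups overlapped one another. Of all tested probe sets, acupoint mice lay below control mice without overlap in 29.2%, below non-acupoint mice in 18.0% and below MPTP mice in 12.5%. The share below all of these groups at once was not counted. The gap of 0.37 between the 2 controls was exceeded by 2.21% of the tested probe sets in that group. Serpina3n belongs to a cluster of near-identical Serpina3 genes, so probes shared with a neighbour are possible.

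Acupoint minus control was -0.69 for Serpina3n (SE 0.29; limma adjusted p = 0.895), a 1.61-fold lower signal. Acupoint minus non-acupoint was -0.68 (adjusted p = 0.893), and acupoint minus MPTP was -0.65 (adjusted p = 0.889). The high values of the non-acupoint and MPTP groups were those of the 2 arrays that stood apart. Without them, acupoint minus non-acupoint was -0.37 and acupoint minus MPTP was -0.32, and neither passed. Acupoint minus control kept its value and passed in that fit (adjusted p = 0.0296).

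Agt encodes angiotensinogen, the precursor of the angiotensin peptides, which in brain is made mostly by astrocytes, and its gene lies on chromosome 8 at 124556587 to 124569706. Its signal was 10.79 and 10.65 in acupoint mice, 11.22 and 10.97 in non-acupoint mice, 11.002 and 10.948 in MPTP mice, and 10.98 and 10.96 in control mice. As for Serpina3n, both acupoint mice lay below the other 6, and the share of probe sets with that pattern was not counted. Acupoint minus non-acupoint was -0.37 (SE 0.14), with an unadjusted p of 0.036 (limma adjusted p = 0.893), and -0.25 without the 2 arrays that stood apart. Acupoint minus control was -0.25 and acupoint minus MPTP was -0.26, and neither passed. Agt and Serpina3n correlated at 0.84 over the 8 arrays and 0.79 over 6, as a description of values that share arrays.

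**Figure D2:**
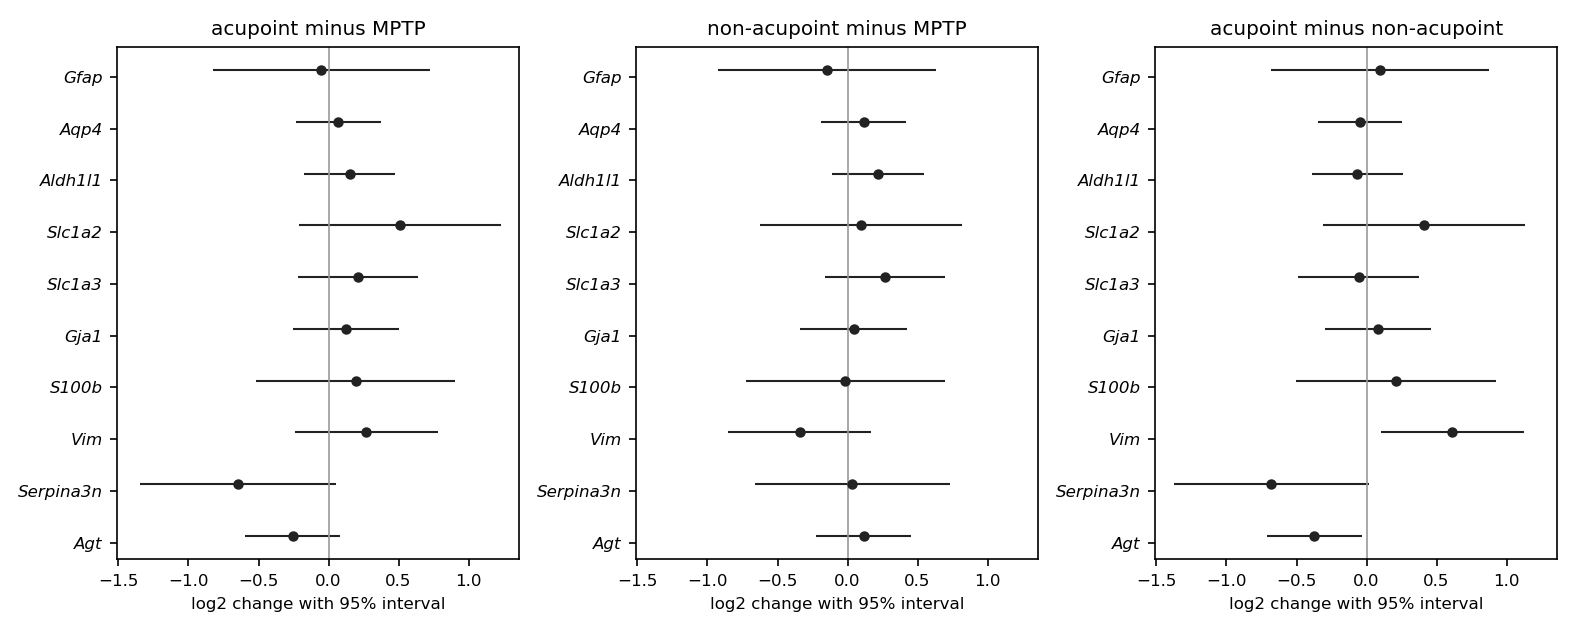
Log2 differences (x axis) of the 10 genes (rows) between the needled groups and MPTP mice and between the 2 needled groups, with 95% intervals from the limma fit over 8 arrays. Serpina3n and Agt lie left of 0 in both comparisons that have acupoint mice on top. Vim, Slc1a2, Gja1 and S100b lie right of it in both, and no adjusted p passed the threshold.

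Aqp4 encodes aquaporin-4, the water channel of astrocyte endfeet. Its signal was 9.91 and 9.95 in acupoint mice, 9.91 and 10.05 in non-acupoint mice, 9.85 and 9.88 in MPTP mice, and 10.25 and 10.16 in control mice. The 6 injected mice all lay below both controls, within a range far narrower than that of Gfap. The injected groups together differed from control by -0.28 (SE 0.10), or 1.22-fold lower, with an unadjusted p of 0.031 (limma adjusted p = 0.643). MPTP minus control was -0.34, with an unadjusted p of 0.032 (adjusted p = 0.714). Without the 2 arrays that stood apart the injected difference was -0.25 (adjusted p = 0.0818), short of the threshold.

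Gja1 encodes a connexin of astrocyte gap junctions. Its signal was 10.55 and 10.44 in acupoint mice, 10.24 and 10.58 in non-acupoint mice, 10.30 and 10.44 in MPTP mice, and 10.66 and 10.59 in control mice. All 6 injected mice lay below both controls, though non-acupoint mouse 2 lay only just below them. The injected difference was -0.20 (limma adjusted p = 0.739) and -0.12 without the 2 arrays.

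Slc1a2 and Slc1a3 encode the main astrocyte glutamate transporters, which clear glutamate from the synapse. Slc1a2 was 11.73 and 11.66 in acupoint mice, 10.97 and 11.60 in non-acupoint mice, 10.79 and 11.57 in MPTP mice, and 11.48 and 11.47 in control mice. Its 2 low values were those of the arrays that stood apart, and all of the other injected mice lay above both controls. The injected difference was -0.09 over 8 arrays and 0.14 over 6, so its sign turned with those 2 arrays. Acupoint minus MPTP was 0.51 (SE 0.30; limma adjusted p = 0.889) over 8 arrays and 0.12 over 6. Slc1a3 was 10.18 and 10.38 in acupoint mice, 10.26 and 10.42 in non-acupoint mice, 10.28 and 9.86 in MPTP mice, and 10.20 and 10.15 in control mice. The groups overlapped for Slc1a3 except that both non-acupoint mice lay above both controls. Its injected difference was 0.06 over 8 arrays and 0.01 over 6. Acupoint minus MPTP was 0.21 over 8 arrays and 0.42 over 6 for Slc1a3, and neither passed.

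Aldh1l1, a folate enzyme used as a marker of all astrocytes, had its highest values in the needled mice, with no difference past the threshold. Its signal was 8.82 and 8.91 in acupoint mice, 8.83 and 9.04 in non-acupoint mice, 8.68 and 8.75 in MPTP mice, and 8.70 and 8.60 in control mice. Both needled groups lay above the MPTP mice and the controls, and MPTP and control mice overlapped. The injected difference was 0.19 (limma adjusted p = 0.739), and non-acupoint minus control, the larger of the needled differences from control, was 0.28 (adjusted p = 0.705). S100b, a calcium-binding protein of astrocytes and of some oligodendrocytes, was 9.83 and 9.67 in acupoint mice, 9.16 and 9.92 in non-acupoint mice, 9.25 and 9.86 in MPTP mice, and 10.07 and 10.01 in control mice. All injected mice lay below both controls, with an injected difference of -0.42 (adjusted p = 0.739) that was -0.20 without the 2 arrays that stood apart.

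Counted over the list, 8 of the 10 genes were lower in the injected groups than in control by fitted difference, against 52.2% of all tested probe sets. The median was -0.22 for the 10 genes and -0.01 for all probe sets, and -0.16 for the 10 genes over 6 arrays. For 4 genes, Gfap, Aqp4, Gja1 and S100b, the injected mice all lay below both controls, where 9.66% of probe sets did so, and for none did all lie above (10.3%). An exact two-sided permutation test of 6 against 2 mice has 28 regroupings and, as run here, cannot go below 0.0714. Those 4 genes reached that value through the non-overlap itself, so it adds nothing to the count. At an unadjusted p of 0.05, 2 of the 10 were lower in the injected groups, where 2.98% of probe sets were. No gene of the 10 passed the adjusted threshold in that comparison, where 0.00% of probe sets did (unadjusted, 7.07% in either direction).

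**Figure D3:**
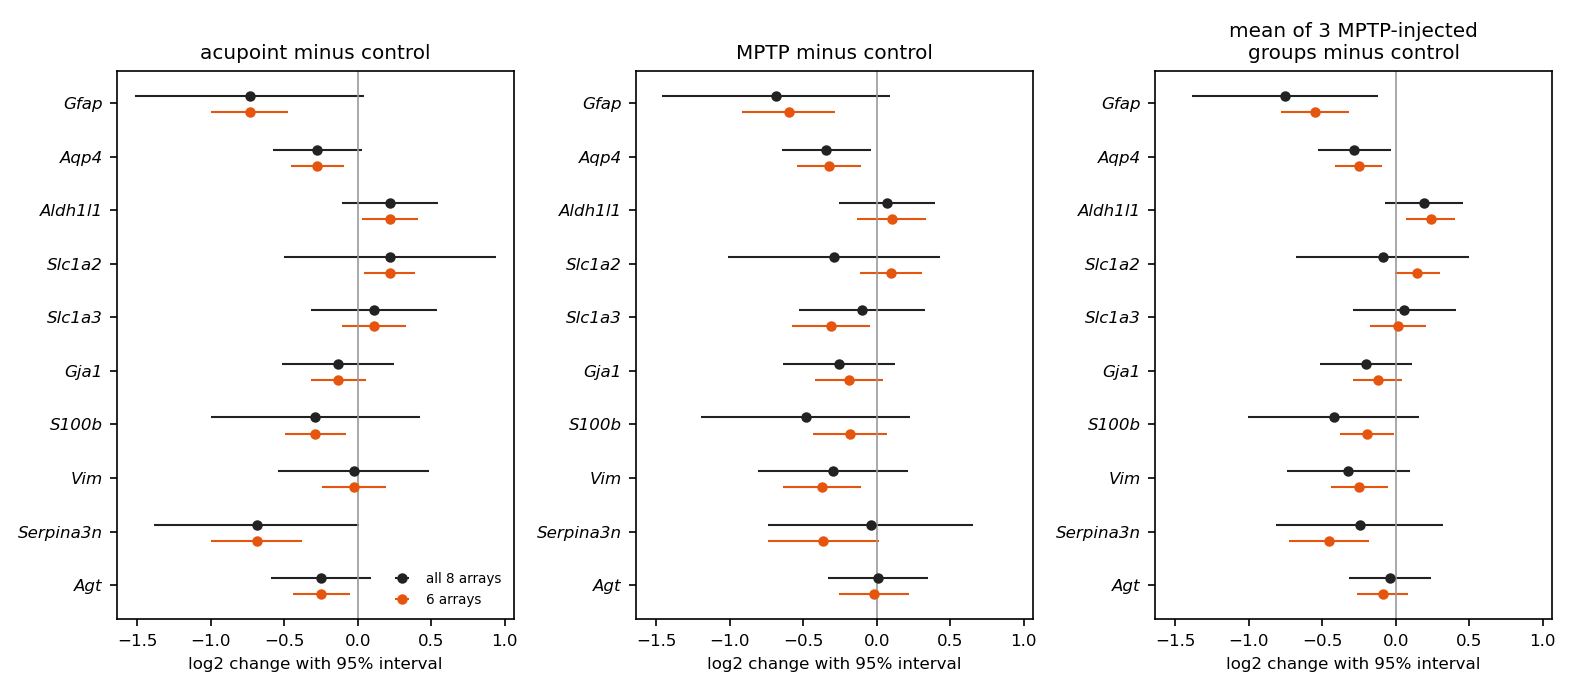
Log2 differences from control (x axis) of the 10 genes (rows) in acupoint mice, in MPTP mice and in the mean of the 3 injected groups, with 95% intervals, over all 8 arrays (black) and over 6 without MPTP mouse 1 and non-acupoint mouse 1 (orange). Gfap is left of 0 in all 3 panels with both sets of arrays, whereas Slc1a2 for the injected groups is at -0.09 over 8 arrays and 0.14 over 6.

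None of the 10 passed in any of the other 6 pairwise comparisons by limma's adjusted p, where 0.00% of probe sets passed except in non-acupoint minus MPTP (0.0443%). By the F test over the 4 groups 0 of the 10 passed (0.00% of probe sets), and 0 had an unadjusted p under 0.05 (3.54%). Against control, acupoint mice did not overlap the controls for 8 of the 10 genes (6 lower, 29.2% of probe sets; 2 higher, 30.4%), non-acupoint mice for 7 (5 lower, 22.3%; 2 higher, 25.5%) and MPTP mice for 5, all lower (20.4%; higher, 18.2%). In both of these last groups the lower genes were Gfap, Aqp4, Gja1, S100b and Vim. The higher genes were Aldh1l1 and Slc1a2 in acupoint mice and Aldh1l1 and Slc1a3 in non-acupoint mice. Acupoint minus MPTP did not overlap for 5 genes higher, Aqp4, Aldh1l1, Slc1a2, Gja1 and Vim (14.5% of probe sets), and 2 lower, Serpina3n and Agt (12.5%). Non-acupoint minus MPTP did so for 2 genes higher, Aldh1l1 and Aqp4 (5.67%), and 0 lower (6.74%), and acupoint minus non-acupoint for 2 higher, Slc1a2 and Vim (13.8%), and 2 lower, Serpina3n and Agt (18.0%). At an unadjusted p of 0.05 the counts were 0 in acupoint minus control (5.62% of probe sets in either direction), 2 in non-acupoint minus control, Gfap and Vim (4.88%), and 1 in MPTP minus control, Aqp4 (5.29%). They were 0 in acupoint minus MPTP (1.37%), 0 in non-acupoint minus MPTP (1.56%) and 2 in acupoint minus non-acupoint, Vim and Agt (1.89%).

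Other astrocyte identity genes were spread around 0 against control. Of 28 further identity genes, 27 were tested, and 16 were higher and 11 lower in the injected groups, with a median of 0.01 (-0.04 over 6 arrays). None of the 27 passed the adjusted threshold. Dio2, which converts thyroid hormone to its active form, was 7.88 and 7.86 in acupoint mice, 7.73 and 7.78 in non-acupoint mice, 7.82 and 7.76 in MPTP mice, and 7.51 and 7.44 in control mice. All injected mice lay above both controls, and the injected difference of 0.33 had an unadjusted p of 0.013. Ntsr2, a neurotensin receptor of astrocytes, ran the other way with an injected difference of -0.44. Hepacam, an adhesion protein of astrocyte junctions, was 9.96 in MPTP mouse 1 and 10.10 in non-acupoint mouse 1, against 8.94 to 9.15 in the other 6 mice.

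Not all genes of the reactive lists could be tested, because some had no named probe set and others were too dim. Of 13 genes raised in reactive astrocytes of any kind, 9 were tested, Gfap, Vim and Serpina3n among them, and 7 were lower and 2 higher in the injected groups (median -0.25 over 8 arrays and over 6). Hspb1, a small heat shock protein, was 7.00 and 7.45 in acupoint mice, 6.24 and 6.87 in non-acupoint mice, 5.75 and 6.90 in MPTP mice, and 7.45 and 7.37 in control mice. Of 13 genes of the A1 type, 7 had a named probe set and 5 were tested (3 higher, 2 lower), with a median of 0.01 over 8 arrays and -0.11 over 6. Of 12 genes of the A2 type, 7 were tested (1 higher, 6 lower), with a median of -0.12 over 8 arrays and -0.09 over 6. Fkbp5, an A1 gene that glucocorticoids also induce, had an injected difference of 0.59 with an unadjusted limma p of 0.015. Its difference from control was 0.88 in MPTP, 0.57 in acupoint and 0.30 in non-acupoint mice. The complement inhibitor gene Serping1 had an injected difference of -0.52. No gene of these lists passed after adjustment in the injected groups.

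Among filament and scar genes, 7 of 9 tested were higher in the injected groups and 2 lower (median 0.11 over 8 arrays and 0.13 over 6). Nes, which encodes the filament nestin, was 5.84 and 5.71 in acupoint mice, 5.51 and 5.80 in non-acupoint mice, 5.31 and 5.58 in MPTP mice, and 6.06 and 6.27 in control mice. All 6 injected mice lay below both controls for Nes, with a difference of -0.54. Nes was dim, and its values in both MPTP mice and in non-acupoint mouse 1 lay under the brightness floor of 5.63. Tnc, the matrix protein tenascin-C, lay above with 0.53. The 12 tested signalling genes of astrogliosis had a median of 0.14 over 8 arrays (9 higher, 3 lower) and of -0.0019 over 6. None of these genes passed after adjustment.

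For the function of Aqp4 and Gja1, 8 genes of water, potassium and gap junctions had a median of 0.11 over 8 arrays (6 higher, 2 lower) and of 0.016 over 6. Most of these 8 were also in the identity list above, and other lists share genes too, so the lists are not separate observations. Gjb2, another connexin, which meningeal cells also make, was lower in every injected mouse than in either control, with a difference of -0.43. For the transporters, 9 genes of glutamate and GABA uptake and recycling had a median of -0.09 over 8 arrays (3 higher, 6 lower) and of 0.03 over 6, so the sign turned. Slc1a1, the glutamate transporter of neurons, had an injected difference of 0.39. A list of S100 family genes other than S100b, together with the receptor gene Ager, had 7 tested genes. All were lower by fitted difference (median -0.30 over 8 arrays and -0.20 over 6). No gene of these lists passed after adjustment.

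For Agt, 11 further genes of the angiotensin system were listed, 7 had a named probe set and 3 were bright enough to test (median 0.37 over 8 arrays and 0.41 over 6), and Ace, which cuts angiotensin I, was the most varied. Ace was 7.63 and 8.09 in acupoint mice, 6.96 and 6.56 in non-acupoint mice, 8.37 and 8.22 in MPTP mice, and 7.25 and 7.03 in control mice. Choroid plexus epithelium also makes Ace, and the mean of 11 choroid plexus genes, relative to each gene's mean over the arrays, was 0.72 and 1.30 in acupoint mice, -1.78 and -1.67 in non-acupoint mice, 1.20 and 1.29 in MPTP mice, and -0.53 and -0.53 in control mice. The part of that tissue in the Ace values was not tested.

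Marker lists of other cells gave these median differences from control in the injected groups, where no gene of any list passed the adjusted threshold. The median was 0.78 over 8 arrays and 0.72 over 6 for 10 thalamic relay neuron genes, and -0.48 and -0.47 for 9 meningeal fibroblast genes. For 9 hypothalamic neuron genes it was -1.10 over 8 arrays and -0.49 over 6, and for 7 dopaminergic neuron genes -1.29 and -0.97. For 12 microglia genes it was -0.15 over 8 arrays and -0.09 over 6, for 11 oligodendrocyte genes -0.16 and -0.03, and for 13 general neuron genes -0.03 and 0.05. The mean of the 10 astrocyte genes, relative to each gene's mean, was -0.04 and -0.02 in acupoint mice, -0.20 and 0.10 in non-acupoint mice, -0.11 and -0.06 in MPTP mice, and 0.21 and 0.10 in control mice. The relay, hypothalamic and dopaminergic genes lie in different parts of the brain, and the part that the cut of the tissue plays in the astrocyte values was not tested.

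**Figure D4:**
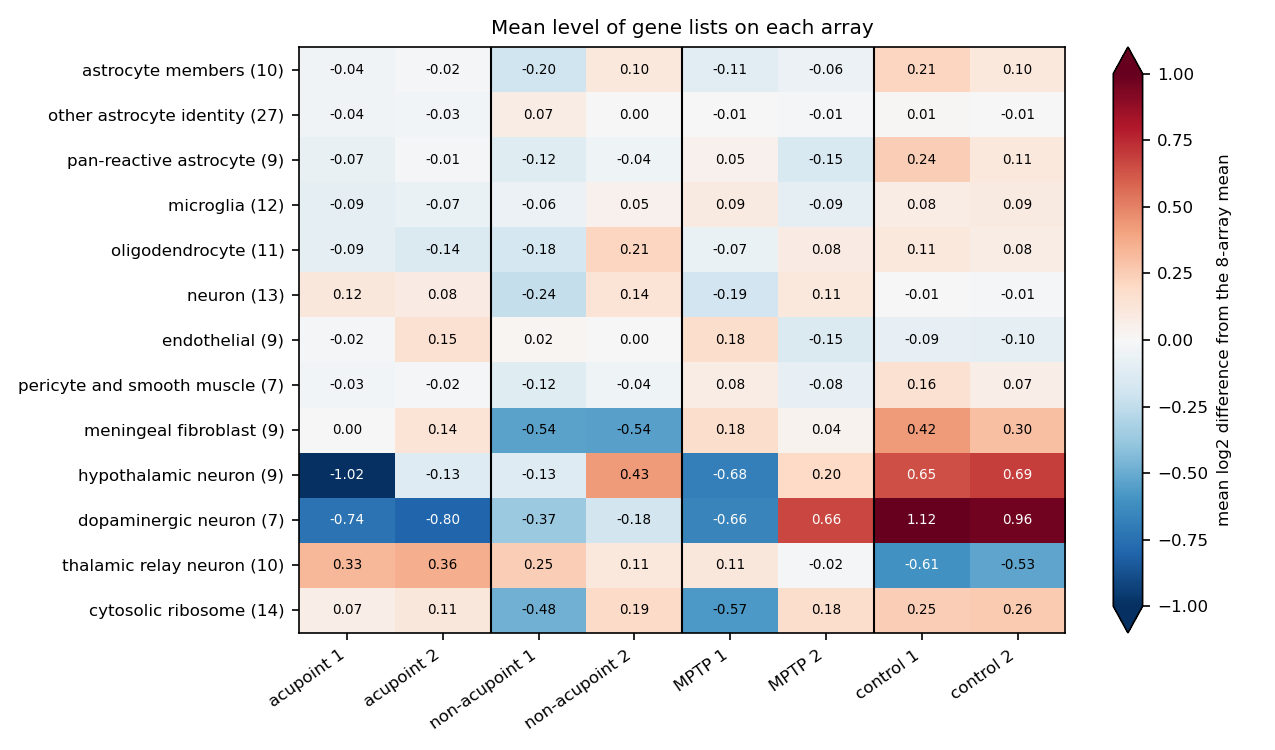
Mean log2 signal of 13 gene lists (rows, with the number of genes tested), relative to each gene's mean over the 8 arrays, in the 8 mice (columns, acupoint to control from left to right), with colours capped at 1 in each direction. The hypothalamic row runs from -1.02 to 0.69 and the dopaminergic row from -0.80 to 1.12, while the row of the 10 astrocyte genes (top) lies between -0.20 and 0.21.

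The genes whose pattern over the 8 arrays was most like that of each astrocyte gene were found by Pearson correlation among 13523 candidates. Gfap was closest to Asphd2 (0.996 over 8 arrays and 0.997 over 6), then Tspan6 (0.975) and Rnf166 (0.970). Aqp4 was closest to Pcdh8 (0.975) and Cx3cr1 (0.965), the fractalkine receptor of microglia. Serpina3n was closest to Camk1g (0.987), and Agt to Clcn5 (0.984). With so many candidates and 8 arrays high values are common, and these are descriptions of shared arrays. Among the 10 genes, Gfap and Aqp4 correlated at 0.84 over 8 arrays and 0.96 over 6, and Gfap and Slc1a2 at 0.45 over 8 and -0.92 over 6, so the 2 arrays that stood apart turned that sign.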

How the data were processed

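The deposited values are log2 signals that the authors made with Affymetrix Expression Console and RMA, per the submitters' processing notes, with no version given there. The labels' protocols state 300 ng of total RNA per array. Of 35557 probe sets, 21789 carried 1 gene symbol in the platform annotation. The dimmest 40% of all probe sets by mean over the arrays were left out, which set a floor of 5.63, and 15791 named probe sets remained. Array medians ran from 6.18 to 6.29. Differences and the F test over the 4 groups were fitted with limma 3.58.1 in R 4.3.3, with a mean per group over all 8 arrays (4 residual degrees of freedom). The number of arrays limits the precision. With 2 mice against 2, an exact permutation test cannot reach the threshold. Genes outside the 10 were named from the 3 of smallest F test p in each of 27 lists and the 3 of highest correlation with each of the 10. The 10 genes, the gene lists and the alternatives were chosen with earlier results of these data known. Sequences are from RefSeq tables of GRCm38.p6.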

Additional observations from a re-analysis of the deposited data

How the results depend on the processing

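Over 8 arrays no gene of the 10 passed an adjusted p of 0.05 in any of the 7 comparisons or the F test, and that count stayed 0 with 0 to 0 when each mouse was left out in turn. In acupoint minus control the count was 3 with array weights (Gfap, Aqp4 and Serpina3n), 2 when only the 2 groups were fitted, 2 over the 6 arrays without MPTP mouse 1 and non-acupoint mouse 1, and 1 with a term for those 2 arrays (Serpina3n, adjusted p = 0.0370). In the injected groups against control it was 1 over the 6 arrays (Gfap), and in the F test 1 with array weights (Gfap, adjusted p = 0.0487). These settings also raise the calls over all probe sets: in acupoint minus control from 0 over 8 arrays to 1738 with array weights, 1365 over 6 arrays or with only the 2 groups, and 580 with the term, and in the injected groups to 855 over 6 arrays. With array weights the F test called 558 of the 15791 probe sets, against 0 in the 8-array fit without weights. The cause of these rises was not tested. Of 1460 alternative values of the 10 genes, 58 had the other sign, none of them past the threshold, and 9 passed where the 8-array value did not. Those 9 are not all separate results. For acupoint minus control, the fit of only the 2 groups and the fit over 6 arrays give the same values, and both are counted. With mouse number as a replicate block, 0 of the 10 passed in every comparison. The labels do not say that the numbers pair mice. Deviations of same-numbered mice correlated at -0.28 to 0.19 between groups, except at 0.82 between non-acupoint and MPTP mice, whose mouse 1 arrays are the 2 that stood apart. Each gene had 1 probe set, so the alternative of another probe set was not run. Groups of 2 mice leave wide intervals, so differences that did not pass may still be present.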

Other observations

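Blood vessel and other cell markers gave further median differences of the injected groups from control, and several moved without MPTP mouse 1 and non-acupoint mouse 1. For 9 endothelial genes the median was 0.22 over 8 arrays (7 higher, 2 lower) and 0.09 over the other 6. For 7 pericyte and smooth muscle genes it was -0.14 over 8 arrays and -0.05 over 6, and for 5 ependymal genes 0.26 and 0.21. For 7 genes of oligodendrocyte precursors it was -0.24 over 8 arrays and -0.02 over 6, and for 2 tanycyte genes -0.17 and -0.35. Of 6 genes that differ between forebrain and other astrocytes, 5 were lower over 8 arrays, with a median of -0.26 over 8 arrays and -0.12 over 6. Among them Itih3, a hyaluronan-binding protein gene, was at -0.50 (unadjusted p = 0.022, not past adjustment by limma). Cytosolic ribosome genes were lower in 13 of 14 by fitted difference over 8 arrays, with a median of -0.33 over 8 arrays and -0.10 over 6. Choroid plexus genes had a median of 0.87 over 8 arrays and 0.85 over 6, and 7 striatal neuron genes -0.18 over 8 arrays and -0.80 over 6. The ependymal, choroid plexus and striatal medians differed in sign between the injected groups. Over 8 arrays the ependymal median against control was 0.51 in acupoint, -0.23 in non-acupoint and 0.28 in MPTP mice. In the same order it was 1.53, -0.72 and 1.75 for choroid plexus genes and -0.67, -0.24 and 0.22 for striatal genes.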
